A study of Mus musculus with 47 samples.

Results

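The genes described here are the 4 Id genes (Id1, Id2, Id3 and Id4), the 3 E-protein genes whose products they bind (Tcf3, Tcf4 and Tcf12), the BMP target Smad6 and the Notch targets Hes1 and Hes5. They are 10 of the 35486 genes in a table of hippocampal RNA-seq read counts, and all 10 were among the 17778 genes with enough reads to be tested. The set was chosen by the measured difference of Id2, which was higher with PF4 in old mice in these same libraries, so the Id2 values in old mice, and all differences between the old groups, are a description and carry no test. The other 9 genes were listed as its partners and as targets of the same pathways.

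The 47 libraries are bulk RNA from the hippocampus, each of 1 male C57BL/6J mouse. They received vehicle (Veh) or PF4, platelet factor 4, a chemokine released by platelets, given as the recombinant mouse protein by daily intraperitoneal injection. The groups were Young Veh (n = 13, aged 3.75 to 5.26 months), Young PF4 (n = 12, 4.08 to 5.03 months), Old Veh (n = 12, 17.47 to 19.97 months) and Old PF4 (n = 10, 17.4 to 20.23 months). No group carried a transgene or a deletion, and replicates were separate mice. Library numbers in the sample titles run through Old Veh first, then Old PF4, then the young groups, which are mixed with each other. What these numbers stand for is not given. Anything that follows them cannot be told apart from age, or from PF4 in old mice.

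Total counts per library ran from 2242879 to 21112908 (median 10374007), and 8 libraries had under 5000000 reads, 4 of them Old Veh. A score of 6 genes that mark hippocampus averaged between 6.94 and 6.97 log2 CPM in the 4 groups, where CPM is a count scaled to the TMM-adjusted total of its library. Markers of choroid plexus, the secretory tissue beside the hippocampus, varied most, with scores from -0.13 to 6.13 log2 CPM between libraries and group means of 4.17 in Young Veh, 4.30 in Young PF4, 2.17 in Old Veh and 2.48 in Old PF4. Reads were counted without strand, so those of an overlapping gene on the other strand cannot be told apart.

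Id proteins are helix-loop-helix proteins that lack the basic stretch with which their relatives bind DNA. They pair with E proteins and so keep them from pairing with tissue-restricted factors such as the Neurod proteins at E-box sites, and in the brain they are known for holding neural stem cells and astrocytes back from neuronal differentiation. BMP ligands, through SMAD1 and SMAD5, are known to switch on Id genes and the inhibitory SMAD gene Smad6, and Notch signalling, through RBPJ, is known to switch on Hes1 and Hes5, which encode repressors of proneural genes.

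The promoters of Id2, Id4 and Hes5 are shown because Id2 chose the set, Id4 was the Id gene whose age difference was tested and called, and Hes5 holds the most matches to the motifs of both pathways. They are read on the gene's strand of GRCm38.p6, in windows of 250 bases before the RefSeq start. Capitals mark GGCGCC, a GC-rich element that SMAD1 and SMAD5 bind, in the Id2 and Id4 windows, and TGGGAA, the core of the RBPJ site, in the Hes5 window, where it occurs on both strands as TGGGAA and TTCCCA. The Id2 window, at chr12:25096254-25096342 on the minus strand, is cut to the 89 bases farthest from the start, which lie in an intron of a longer annotated Id2 transcript; the rest of the window is exon of that transcript. The Id4 window lies at chr13:48260866-48261115 on the plus strand and the Hes5 window at chr4:154960673-154960922 on the plus strand.
Id2: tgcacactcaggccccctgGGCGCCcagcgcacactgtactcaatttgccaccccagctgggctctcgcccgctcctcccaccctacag
Id4: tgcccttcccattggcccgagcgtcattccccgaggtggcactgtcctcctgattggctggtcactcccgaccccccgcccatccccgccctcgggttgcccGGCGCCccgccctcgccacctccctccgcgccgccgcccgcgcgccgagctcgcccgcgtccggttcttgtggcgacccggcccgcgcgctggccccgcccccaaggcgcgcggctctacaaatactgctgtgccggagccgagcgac
Hes5: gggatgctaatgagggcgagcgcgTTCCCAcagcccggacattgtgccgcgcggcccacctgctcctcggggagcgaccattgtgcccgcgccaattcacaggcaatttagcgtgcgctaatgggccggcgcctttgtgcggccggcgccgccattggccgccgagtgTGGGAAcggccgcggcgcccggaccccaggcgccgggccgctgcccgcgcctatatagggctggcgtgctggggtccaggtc

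Searched on both strands over 250 bases before the start, GGCGCC occurred in 3 of the 9 windows found for these genes (Id2, Id4 and Hes5, with 4 matches in Hes5) and in 9.59% of the 32817 windows of all genes. TGGGAA occurred in the windows of Id4 and Hes5 and in 21.6% of all. The E-box CANNTG, the site E proteins bind, occurred in 5 of the 9 and in 66.2% of all, and the N-box CACNAG, bound by Hes proteins, occurred in 1, that of Id4, and in 36.7% of all. Of the 9 windows 3 belong to Tcf12, and the promoters of Id1, Hes1 and Tcf4 were not used here. A match is only a run of letters. In GRCm38 the Id genes lie apart, Id1 on chromosome 2 (152736251 to 152737410), Id2 on 12 (25093799 to 25097140), Id3 on 4 (136143497 to 136145755) and Id4 on 13 (48261228 to 48266026).

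Among the Id genes Id2 was the highest per length. With CPM divided by the length of the longest transcript, Id2 averaged 76.6 ± 6.77 (SD, n = 13) CPM per kilobase in Young Veh, against 38.7 ± 4.75 for Id3, 38.2 ± 3.17 for Id4 and 4.77 ± 1.33 for Id1. Id3 and Id4 differed by less than the spread between mice, and Id1 was the lowest. Id2 made up 48.4% of the Id sum per kilobase in Young Veh, 48.4% in Young PF4, 48.6% in Old Veh and 51.3% in Old PF4. Among the E-protein genes, Tcf4 was far above the others in Young Veh, with 73.3 ± 3.77 CPM per kilobase against 9.74 ± 0.964 for Tcf12 and 8.52 ± 1.03 for Tcf3, and made up between 80% and 81.1% of their sum in each group. Hes5 averaged 17.4 ± 3.03, Hes1 10.5 ± 1.86 and Smad6 1.1 ± 0.351 CPM per kilobase in Young Veh. Levels per length depend on which transcript is taken: over all annotated exon bases Tcf4 was at 23 CPM per kilobase in Young Veh, since its annotated exons sum to 27382 bases, and Id2 at 61.8.

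**Figure D1:**
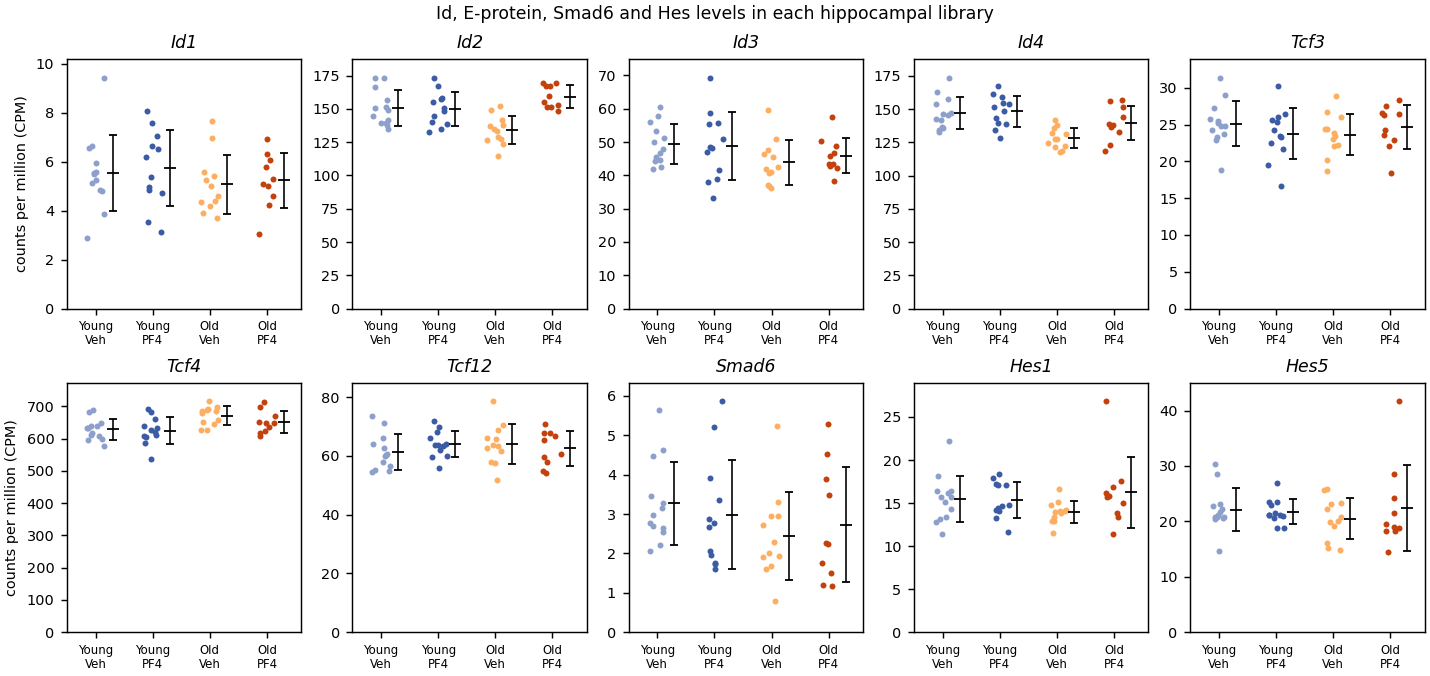
Levels of the 10 genes in each of the 47 libraries, in CPM on a linear axis that starts at 0, by group. Points are mice, and the bar beside them is the mean ± SD. Id2 lies between 148 and 170 CPM in Old PF4 and between 115 and 153 in Old Veh, and Hes1 and Hes5 each have 1 Old PF4 mouse above the rest.

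Id4, an Id protein known for keeping stem cells of the adult hippocampus quiescent, was lower in Old Veh than in Young Veh mice. Its level was 133 CPM at the lowest, 146 at the median and 174 at the highest in Young Veh, and 118, 128 and 141 in Old Veh. All 12 Old Veh mice lay below the Young Veh median, and 9 of them below every Young Veh mouse. The log2 fold change was -0.20 (standard error 0.0459, adjusted p = 0.00954 in edgeR's quasi-likelihood test over all genes), or -12.7% with a 95% interval from -18.1 to -6.89%. In Young PF4 mice Id4 ranged from 129 to 167 CPM (median 150) and in Old PF4 mice from 118 to 157 (median 138). The age difference under PF4 was -0.09 (standard error 0.0489, with an edgeR adjusted p of 0.672) and did not pass the threshold. Whether the age difference of Id4 differs between treatments is the same contrast as the difference of the PF4 effects, which was 0.11 (standard error 0.067) and is given as a description.

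Id4 RNA moved most closely with markers of progenitors and immature neurons among the 13 marker lists. Their score, the mean log2 CPM of Dcx, Sox11, Igfbpl1, Eomes, Mki67 and Top2a, ranged from 1.19 to 2.47 (mean 1.90) in Young Veh and from 0.73 to 2.28 (mean 1.33) in Old Veh, and 1 of its 6 genes, Top2a, was called lower and 5 had negative fold changes. Within groups Id4 and this score correlated at r = 0.575 and rho = 0.508 over the 47 libraries (permutation p = 7e-05 and 0.00055, Benjamini-Hochberg adjusted 0.00179 and 0.0065 over 130 relations), and r was 0.538 once the 2 most distant libraries were dropped. Of the other lists, Id4 also correlated with ependyma (r = 0.397, rho = 0.347, permutation p = 0.00551 and 0.019, adjusted 0.0287 and 0.0948), oligodendrocytes (r = 0.369, rho = 0.352, permutation p = 0.00863 and 0.0183, adjusted 0.0431 and 0.0948) and thalamus, a neighbouring region (r = 0.358, rho = 0.458, permutation p = 0.0115 and 0.00135, adjusted 0.0552 and 0.0125). Without the 2 farthest libraries these were at r = 0.377, 0.383 and 0.37. Between Young Veh and Old Veh the mean score went from 2.58 to 2.32 for ependyma, from 8.51 to 8.60 for oligodendrocytes and from 4.13 to 3.85 for thalamus, and their part in the difference of Id4 was not tested. With the progenitor score as a covariate the age difference of Id4 was -0.10 (edgeR adjusted p of 0.279) and was no longer past the threshold. In bulk tissue, fewer cells of a type and less RNA per cell cannot be told apart. Id4 also missed the threshold without the 8 libraries of low depth, at -0.19 (edgeR adjusted p of 0.0687). Gm49291 and A330033J07Rik share 171 and 82 exon bases with Id4 on the other strand and held 5302 and 3145 reads over all libraries, against 67678 for Id4.

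Id2, which restrains E proteins in neural and immune lineages, was lowest in Old Veh mice. It was 135 CPM at the lowest, 149 at the median and 174 at the highest in Young Veh, 132, 150 and 173 in Young PF4, 115, 134 and 153 in Old Veh, and 148, 157 and 170 in Old PF4. In old mice, the comparison that chose it, 7 of 10 PF4 mice lay above every vehicle mouse, all 10 lay above the vehicle median, and the log2 difference was 0.25 (standard error 0.049), or 18.8%. Old Veh lay 0.17 below Young Veh on the log2 scale (standard error 0.0459), with 6 of 12 mice below every Young Veh mouse. This second difference uses the same Old Veh mice as the comparison that chose the gene and is a description too. Old PF4 mice did not lie below Young PF4 mice: 9 of 10 were above the Young PF4 median, with a log2 difference of 0.08 (standard error 0.0488). Id2 also moved, at r = -0.421 within groups, with an index of long against short genes in each library, whose group means were -0.017, 0.00, 0.039 and -0.025 in the order above. With that index as a covariate the difference between the old groups was 0.215, and with the interneuron score 0.221.

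The young mice were not used to choose Id2 and give a test of PF4 that does not depend on that choice. There Id2 differed by -0.004 on the log2 scale, with a 95% interval from -0.096 to 0.088 (standard error 0.0456, edgeR quasi-likelihood adjusted p of 1), or from -6.42 to 6.26%. Of the 12 Young PF4 mice, 6 were above the Young Veh median and 6 below. The difference of the PF4 effects between ages was 0.25 (standard error 0.067), a description because the old mice enter it. Of all genes tested edgeR called 0 in that contrast, and 707 had an unadjusted p under 0.05.

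Id3 was the next most abundant Id gene by CPM, at 41.8, 48 and 60.7 CPM (lowest, median and highest) in Young Veh, 33.2, 48.4 and 69.3 in Young PF4, 36.1, 42.3 and 59.7 in Old Veh, and 38.3, 44.6 and 57.5 in Old PF4. The groups overlapped broadly, and the difference between Old Veh and Young Veh was -0.16 (standard error 0.086, with an edgeR quasi-likelihood adjusted p of 0.37). With the choroid plexus score as a covariate it was -0.02. Id1, the Id gene most closely tied to BMP signalling in blood vessels, was at 2.86, 5.49 and 9.43 CPM in Young Veh and 3.68, 4.79 and 7.65 in Old Veh, and its difference of -0.13 (standard error 0.147) turned to 0.07 with that covariate and was -0.03 without Young Veh replicate 4. In old mice PF4 gave 0.05 (standard error 0.159) for Id1, 0.06 (standard error 0.0923) for Id3 and 0.12 (standard error 0.0491) for Id4. Over the 11 alternatives these ran from 0.002 to 0.152 for Id1, 0.012 to 0.139 for Id3 and 0.106 to 0.144 for Id4. In young mice PF4 gave 0.03, -0.01 and 0.02 for Id1, Id3 and Id4.

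Tcf4, whose product is the main E protein of mature forebrain neurons, was at 578, 632 and 689 CPM in Young Veh, 537, 623 and 692 in Young PF4, 627, 682 and 716 in Old Veh, and 609, 649 and 714 in Old PF4. Between ages in vehicle mice it differed by 0.09 (standard error 0.0344, with an edgeR quasi-likelihood adjusted p of 0.143), with 10 of 12 Old Veh mice above the Young Veh median, and it did not pass the threshold. With the choroid plexus score as a covariate the difference was 0.04. Tcf12 averaged 61.4 ± 6.07 (SD, n = 13) CPM in Young Veh, 64.1 ± 4.49 (SD, n = 12) in Young PF4, 64.0 ± 6.89 (SD, n = 12) in Old Veh and 62.6 ± 5.88 (SD, n = 10) in Old PF4. Tcf3, which encodes the E12 and E47 proteins, averaged 25.1 ± 3.04, 23.8 ± 3.5, 23.7 ± 2.78 and 24.7 ± 3.01 CPM in these groups in this order. Between the groups compared, differences of Tcf3 and Tcf12 lay between -0.07 and 0.06 on the log2 scale, and neither passed the threshold where tested. Between the vehicle groups Tcf12 went from 0.06 to 0.127 with the choroid plexus score as a covariate and to 0.122 with the progenitor score, and Tcf3 from -0.07 to -0.002 with the progenitor score.

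The sum of the Id genes over the sum of the E-protein genes, both per kilobase of longest transcript, was taken as a log2 ratio in each mouse. It was 0.600 at the lowest, 0.784 at the median and 1.101 at the highest in Young Veh, 0.439, 0.789 and 0.996 in Young PF4, 0.326, 0.529 and 0.833 in Old Veh, and 0.593, 0.724 and 0.905 in Old PF4. Old Veh mice had the lowest median, and the groups overlapped. The means were 0.788 ± 0.137, 0.793 ± 0.156, 0.537 ± 0.14 and 0.742 ± 0.09. Id2 makes up close to 50% of the Id sum, so this ratio rests on the gene that chose the set and was not tested. Over all exon bases the means were higher, from 1.762 in Old Veh to 2.011 in Young PF4, with Old Veh again lowest.

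**Figure D2:**
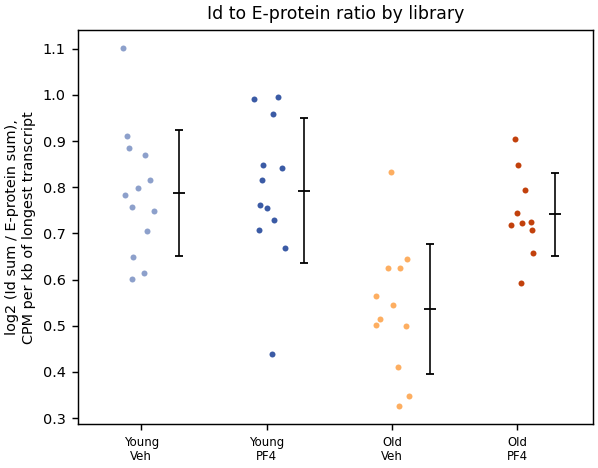
Log2 ratio of the summed Id genes to the summed E-protein genes (CPM per kilobase of longest transcript) in each library, by group, with mean ± SD beside the points. Old Veh averages 0.537 and the other 3 groups between 0.742 and 0.793.

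Smad6, which encodes an inhibitor of BMP signalling and is itself a BMP target, was the lowest of the 10 genes and the most variable. It was at 2.06, 2.97 and 5.63 CPM in Young Veh, 1.6, 2.72 and 5.87 in Young PF4, 0.79, 2.16 and 5.24 in Old Veh, and 1.18, 2.25 and 5.28 in Old PF4, with as few as 5 reads in a library. The groups overlapped throughout, and Old Veh differed from Young Veh by -0.45 (standard error 0.239, with an edgeR quasi-likelihood adjusted p of 0.37). With the choroid plexus score as a covariate that difference was -0.15, and without Old Veh replicate 10 it was -0.68. The 95% interval of that difference ran from -0.931 to 0.031 on the log2 scale.

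Hes1, a Notch target, was at 11.4, 15.8 and 22.2 CPM in Young Veh, 11.6, 14.7 and 18.4 in Young PF4, 11.5, 14 and 16.6 in Old Veh, and 11.4, 15.8 and 26.8 in Old PF4. Hes5, the Notch target most restricted to neural stem cells and astrocytes, was at 14.7, 21.1 and 30.4 CPM in Young Veh, 18.8, 21.2 and 27 in Young PF4, 14.8, 20.4 and 25.8 in Old Veh, and 14.4, 19.3 and 41.7 in Old PF4. The groups overlapped for both, and Old Veh differed from Young Veh by -0.14 (standard error 0.0945) for Hes1 and by -0.10 (standard error 0.112) for Hes5, neither past the threshold. Young Veh replicate 4 was the highest of its group for both, and without it these were -0.080 and -0.048. The highest value of each gene in Old PF4 came from the same mouse, replicate 8, where the next values were 17.5 and 28.6 CPM. In old mice PF4 gave a log2 difference of 0.22 (standard error 0.101) for Hes1 and 0.11 (standard error 0.12) for Hes5, and without that mouse 0.10 and -0.04. Both genes moved with the length index, at r = -0.443 for Hes1 and -0.5 for Hes5 within groups, and with it as a covariate the differences between the old groups were 0.129 and -0.013, and those between the vehicle groups -0.056 and 0.012. Gm20421 shares 433 exon bases with Hes5 on the other strand and held 3051 reads over all libraries against 10735 for Hes5.

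**Figure D3:**
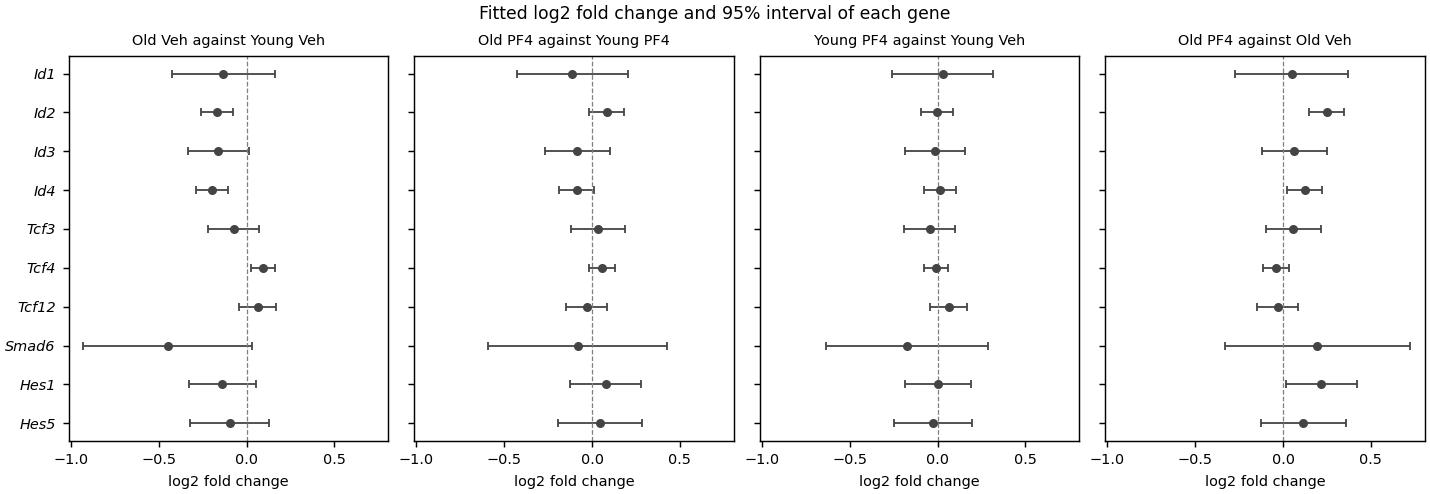
Fitted log2 fold change (points) with its 95% interval (bars) for the 10 genes in 4 comparisons; the dashed line marks no difference. Id4 lies at -0.20 between Old Veh and Young Veh, Id2 at 0.25 between Old PF4 and Old Veh and at -0.004 in young mice, and Smad6 has the widest intervals.

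Of the 9 genes other than Id2, 1 was called between Old Veh and Young Veh, Id4, lower. Of all genes tested, 2.77% were called in that comparison, 2.16% higher and 0.607% lower, and a single call says nothing of the set. The median log2 fold change of the 10 was -0.14, against -0.01 for all genes, and 8 of the 10 were negative. Between Old PF4 and Young PF4 mice 0 of the 10 were called, against 0.332% of all genes (59 genes), 0.304% higher and 0.0281% lower, and the median was 0.00 for the 10 and for all genes. Between Young PF4 and Young Veh 0 were called, against 0 of all genes, of which 213 had an unadjusted p under 0.05. None of the 10 did, and DESeq2 also called 0 genes. Between Old PF4 and Old Veh the set holds 1 called gene, Id2, by the rule, against 0.0337% of all genes, 0.0112% higher and 0.0225% lower, and 8 of the 10 had positive differences, with a median of 0.09 against 0.01 for all genes. The old vehicle mice enter the first and last of these comparisons, so opposite signs in them were not read as a result.

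Around these genes, 91 others of the BMP, Notch and helix-loop-helix pathways were followed in 10 lists, of which 86 were tested. Between Old Veh and Young Veh 2 were called (2.33%, against 2.77% of all genes), both lower, and 14 had an unadjusted p under 0.05 (16.3%, against 15.2% of all genes), so these shares were near those over all genes. One of them was Maml2, a coactivator of the Notch and RBPJ complex, at -0.39 (standard error 0.108, with an edgeR quasi-likelihood adjusted p of 0.0324). With 1 library left out Maml2 was called in 41 of 47 fits (not without Young Veh replicate 4 or Old Veh replicate 2, 3, 6, 7 or 8), and it was not called without the 8 libraries of low depth. Of the 86, 62 had negative and 24 positive fold changes (72.1% negative, against 54.7% of all genes), with a median of -0.07 against -0.01 for all genes.

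By role, in the same edgeR fit, 0 of 6 BMP ligands were called and 5 were negative, with Bmp7 at -0.55 (standard error 0.265), Bmp6 at -0.45 (standard error 0.244) and Bmp3 at -0.31 (standard error 0.177) among the highest by level. The choroid plexus score also averaged 4.17 in Young Veh and 2.17 in Old Veh, and its part in these ligand values was not tested. Of 11 BMP receptors and co-receptors 0 were called, with Bmpr2 at 0.24 (standard error 0.0758), Rgmb at 0.04 and Acvr2a at -0.02. Of 5 BMP SMADs 0 were called, with Smad1 at 0.01 and Smad4 at -0.06, and of 10 BMP antagonists 0, with Twsg1 at -0.11, Chrd at -0.01 and Crim1 at 0.05. Of 8 Notch ligands 0 were called and 7 were negative, with Dner at -0.12 (standard error 0.046) and Jag1 at -0.11. Of 13 genes of Notch processing 1 was called, lower, and 12 were negative, and of 8 Notch nuclear factors and other targets 1 was called, Maml2, and 7 were negative. Of 4 Notch receptors 0 were called, with Notch1 at 0.06 and Notch2 at -0.26. Of 9 genes that bind or degrade Id proteins 0 were called, with Fzr1, which targets Id2 for degradation, at -0.05. Under the alternatives other genes passed: Bmpr2 and Nog with DESeq2, Bmpr2 and Fst with the compared groups alone, Bmpr2, Dner, Elk4 and Numb with the length index as a covariate, and Numb with the interneuron score. These were named after their values were seen.

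Of the 12 tissue-restricted and Hes-like factors tested, 0 were called between Old Veh and Young Veh. Neurod6, Bhlhe41 and Bhlhe40, the highest of them, differed by 0.01, 0.02 and 0.04. Between Old PF4 and Young PF4 mice 1 of the 86 was called by edgeR (1.16%, against 0.332% of all genes). At an unadjusted p under 0.05 were 6 of them (6.98%, against 8.27% of all genes). Negative fold changes made up 62.8% of the 86, against 48.3% of all genes. The single call was one of the tissue-restricted and Hes-like factors, Nhlh2, at -1.03 (standard error 0.233, with an edgeR quasi-likelihood adjusted p of 0.0277). It was lost without Young PF4 replicate 11 or Old PF4 replicate 2, 10 or 11, and when only the compared groups were fitted. Between vehicle groups its fold change was -0.27 (standard error 0.214). In young mice PF4 called 0 of the 86 by edgeR, with 0 at an unadjusted p under 0.05, and in old mice 0, with 6 (6.98%, against 6.2% of all genes). DESeq2 called 0 in both.

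**Figure D4:**
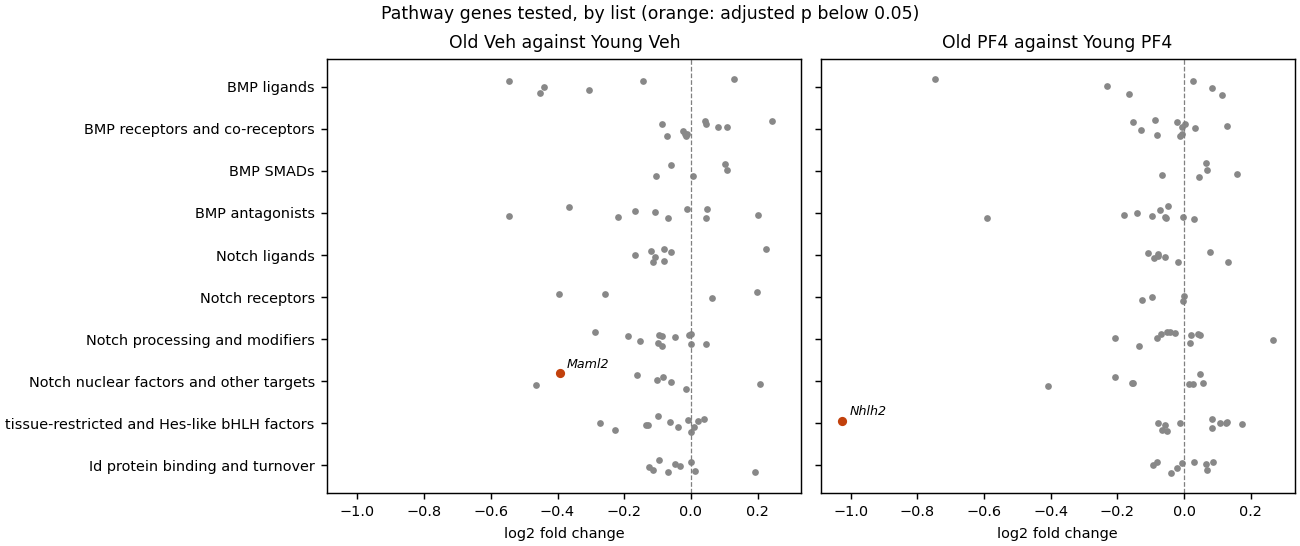
Log2 fold change of 85 of the 86 pathway genes tested, by list, between Old Veh and Young Veh (left) and between Old PF4 and Young PF4 (right). Each point is a gene, and orange points passed an adjusted p of 0.05: Maml2, at -0.39, on the left and Nhlh2, at -1.03, on the right.

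The spread between mice of 1 group, beyond counting noise, also set the 10 genes apart from each other. The biological coefficient of variation was 6.2% for Tcf4, 7.73% for Id4, 7.86% for Id2 and 8.46% for Tcf12, each at or under the median of the 500 genes nearest in level (8.36, 8.34, 8.2 and 9.05%). It was 14.3% for Id3 against 9.19%, 18.3% for Hes5 against 10.6%, 21.7% for Id1 against 15.2% and 36.3% for Smad6 against 18.3%. Hes1 and Tcf3 were at 14.8% against 11.5% and 10.7% against 10.3%.

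Some of the genes correlated between mice of 1 group. The log2 CPM values of Hes1 and Hes5, centred within groups, correlated at r = 0.605 and rho = 0.52 over 47 libraries (permutation p = 0.00013 and 0.00024, Benjamini-Hochberg adjusted 0.0024 and 0.0036 over 45 pairs), and at r = 0.379 once the 2 libraries most distant in the x measure were dropped. By group r was 0.638 in Young Veh, 0.163 in Young PF4, 0.47 in Old Veh and 0.799 in Old PF4. Id1 and Id3 correlated at r = 0.549 and rho = 0.599 (permutation p = 0.00016 and 5e-05, adjusted 0.0024 and 0.00225) and at 0.524 without the 2 farthest libraries, but at 0.242 once the choroid plexus score was removed from both. By group r of Id1 with Id3 was 0.711, 0.652 and 0.647 in Young Veh, Young PF4 and Old Veh, and -0.081 in Old PF4. Id3 and Tcf4 ran opposite, by group between -0.715 and -0.439 and over all libraries at r = -0.541 and rho = -0.524 (permutation p = 0.00031 and 0.00023, adjusted 0.00349 and 0.0036) and at -0.499 without the 2 farthest libraries, and at -0.135 without that score. Id1 and Tcf12 correlated at r = 0.532 and rho = 0.461 (permutation p = 0.00013 and 0.00156, adjusted 0.0024 and 0.014), at 0.55 without the 2 farthest libraries and at 0.32 without the score. Hes1 with Hes5 kept r = 0.603 without it. All values in a library share its depth and dissection.

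Markers of other cells moved with some of the genes. With the choroid plexus score, Id3 correlated at r = 0.692 and rho = 0.687 and Tcf4 at r = -0.678 and rho = -0.706 (permutation p = 1e-05 for each, the smallest the 100000 resamples can give, adjusted 0.000433 for r and 0.00065 for rho over 130 relations), and without the 2 farthest libraries at 0.695 and -0.704. The score has its widest gap between 3.35 and 4.17, with 24 libraries above it and 23 below it. Above and below the gap r was 0.232 and 0.507 for Id3 and -0.363 and -0.569 for Tcf4. Values by side, here and below, were centred on the mean of the whole group. Above the gap lay 8 of 13 Young Veh, 8 of 12 Young PF4, 4 of 12 Old Veh and 4 of 10 Old PF4. Such values therefore mix relations within a side with offsets between groups. Id1 was at r = 0.59 and rho = 0.625 with that score (permutation p = 2e-05 and 3e-05, adjusted 0.00065 and 0.0013; 0.589 without the 2 farthest libraries), but at 0.178 above the gap and -0.121 below it. Tcf12 was at r = 0.531 and rho = 0.53 (permutation p = 0.00035 and 0.00034, adjusted 0.0037 and 0.00468; 0.498 without the 2 farthest libraries), and at 0.281 and 0.252 on the respective sides of the gap. Id2 was at r = -0.004 with the choroid plexus score over all libraries (0.034 above the gap and -0.352 below it), and its r of largest size with any of the 13 marker lists was 0.272, with interneurons (adjusted p = 0.204, permutation). Smad6 correlated with the choroid plexus score at r = 0.567 and rho = 0.556 (permutation p = 0.00011 and 0.00022, adjusted 0.00179 and 0.00357; 0.599 without the 2 farthest libraries; 0.477 above the gap and -0.129 below it). With mural cell markers Smad6 was at r = 0.561 and rho = 0.556 (permutation p = 0.00011 and 0.00019, adjusted 0.00179 and 0.00353), at 0.542 without the 2 farthest libraries and at 0.471 once the choroid plexus score was removed. The relation of largest size for Hes1 was with oligodendrocyte precursor markers, at r = -0.56 and rho = -0.365 (permutation p = 0.00056 and 0.0177, adjusted 0.0052 and 0.0948), and it was -0.272 without the 2 farthest libraries. With astrocyte markers Hes1 was at r = 0.48 and rho = 0.441 (permutation p = 0.0012 and 0.00349, adjusted 0.00892 and 0.0252) and at 0.368 without the 2 farthest libraries. Hes5 ran opposite to mural cell markers, at r = -0.533 and rho = -0.532 (permutation p = 0.00013 and 0.00015, adjusted 0.00182 and 0.00325) and at -0.495 without the 2 farthest libraries. With oligodendrocyte precursor markers Hes5 was at r = -0.501 and rho = -0.316 (permutation p = 0.00151 and 0.0312, adjusted 0.00892 and 0.133) and at -0.319 without the 2 farthest libraries.

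**Figure D5:**
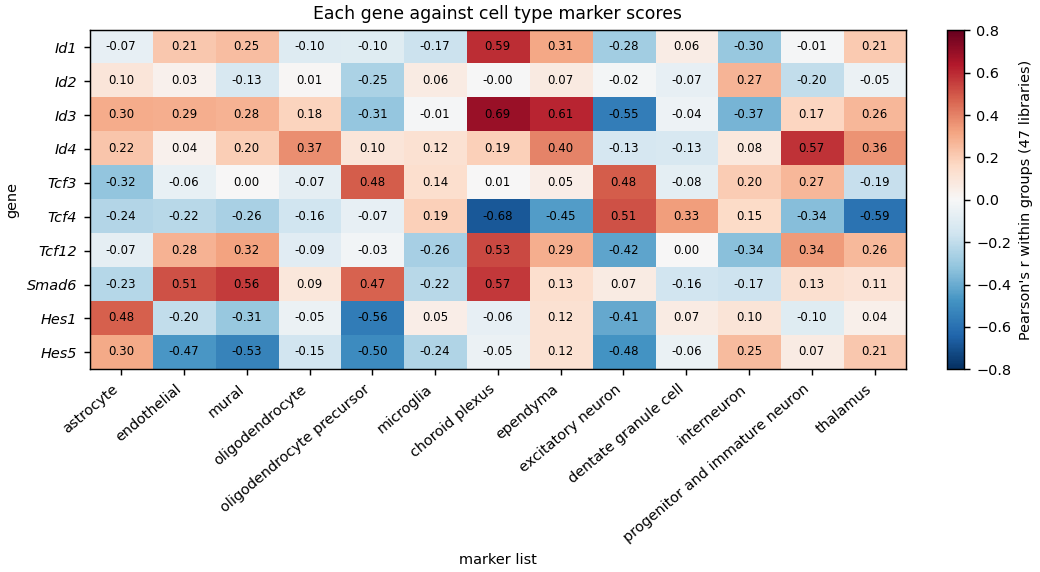
Pearson's r, within groups over 47 libraries, between the log2 CPM of each of the 10 genes (rows) and the mean log2 CPM of each list of cell type markers (columns); red is positive and blue negative. Id3 and choroid plexus reach 0.69, Id4 and progenitors 0.57, Tcf4 and choroid plexus -0.68, and the row of Id2 is pale throughout.

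Ranked over 11554 other genes by within-group correlation of log2 CPM across the 47 libraries, the 5 genes nearest to Id2 included Sephs2 (r = 0.632), Magoh (0.558), 1700101I11Rik (0.558) and Golga5 (0.526). Nearest to Id4 were Gad2, an enzyme of GABA synthesis (0.721), Zic1 (0.704), Cacng5 (0.654), Zfp521 (0.654) and Gm49291 (0.637), the gene that shares exon bases with Id4. Nearest to Id3 were Fhad1 (0.841), Car14 (0.832), Cd63 (0.832), Ctsa (0.825) and Acaa2 (0.823), and nearest to Id1, over 11555 genes, Itpripl1 (0.716), Pdpn (0.715), B4galt1 (0.696), Sept10 (0.69) and Gigyf2 (0.688). The order is a description: the 5 highest of so many are high by selection.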

How the data were processed

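Per the labels, RNA was made into cDNA by Smart-Seq2 and into unstranded Nextera XT libraries. Per the submitters' notes, trimming was by Trim Galore 0.3.7 and alignment to GRCm38 by STAR 2.5.3a, and DESeq2 was the authors' test. The values the authors deposited are raw counts of reads per gene, not normalized, and the counting tool is not given in the sources used here. All 47 columns were matched to samples by their titles. The labels hold no Old PF4 replicate 4.

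Counts were tested with edgeR 4.0.16 in R 4.3.3 (quasi-likelihood test, TMM, filterByExpr with a minimum count of 10, a single fit of the 4 groups), with Benjamini-Hochberg adjustment over 17778 genes and a threshold of 0.05. Standard errors are the absolute log2 fold change over the square root of F, and log2 CPM used a prior count of 2. The members, gene lists and tests were chosen with earlier results of these data known. The genes named are the 10 members, pathway genes past the threshold or, where none was, up to 3 of the highest level, and the 5 genes nearest to each Id gene. Genes that share exon bases with a member, and the progenitor markers, are named beside the result they touch. Of the genes this rule selects, 2 are not reported here. Marker scores are means of log2 CPM. Correlations used permutation within groups with 100000 resamples. Gene positions and lengths came from GENCODE vM21 and promoters from RefSeq GRCm38.p6. On simulated counts for Old Veh against Young Veh (17651 genes), edgeR called 31.3% of 67 genes changed by 0.2 on the log2 scale, 86.6% of 67 changed by 0.5 and 100% of 66 changed by 1.

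Alternatives were DESeq2 1.42.0, its size factors, other count filters, the compared groups alone, a replicate block, covariates (choroid plexus score, length index, which contrasts long with short genes), omission of the 8 libraries under 5000000 reads and of each library in turn. Covariates for interneuron and progenitor scores were added after the data had been seen.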

Additional observations from a re-analysis of the deposited data

Results flagged for a closer look

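Hes1 in Old PF4 replicate 8 stood apart from its group: at 26.8 CPM it lay above the next mouse (17.5 CPM) by 0.5 of the group's log2 range, over Dixon's 95% critical value for 10 samples. Such a test flags about 1 in 20 groups by chance, and 10 genes were looked at in this group. The same mouse was highest for Hes5 (41.7 CPM, next 28.6), at 0.355 of the range, and lowest for Tcf3 (18.4 CPM) and Id4 (118 CPM). Its mural score (3.08), oligodendrocyte precursor score (3.55) and excitatory neuron score (8.37) were the lowest of the group, and their part in these values was not tested. Without this mouse the Hes1 difference between Old PF4 and Old Veh was 0.10 rather than 0.22.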

How the results depend on the processing

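Id4 stayed lower in Old Veh than in Young Veh under all 11 alternatives (-0.214 to -0.103) and with each of 47 libraries left out (-0.206 to -0.176, called in all 47), and lost its call only without the low-depth libraries and with the progenitor score. Between Old Veh and Young Veh, the count of the 10 genes past the threshold, in which Id2 is a description, went from 2 to 1 with the compared groups alone, the choroid plexus, interneuron or progenitor score, to 0 without the low-depth libraries, and was 1 to 2 when libraries were dropped singly (Id2 was lost without Young Veh replicate 6 or 8 or Old Veh replicate 1, 4, 5 or 7). The pathway count went from 2 to 4 with DESeq2, to 6 with the length index, to 1 with the choroid plexus score and to 0 without the low-depth libraries or with the progenitor score, and was 0 to 4 when libraries were dropped singly; between Old PF4 and Young PF4 it went from 1 to 0 with the compared groups alone, and was 0 to 1 when libraries were dropped singly. In the comparison that chose Id2 the call of Id2 was lost (count 0) with the compared groups alone, without the low-depth libraries, with the length index and with the interneuron score, and when libraries were dropped singly the count was 0 to 1 (lost without Old Veh replicate 1, 2, 3, 4, 5 or 7 or Old PF4 replicate 5, 6, 7, 8, 9 or 11). Over the 11 alternatives the difference ran from 0.215 to 0.260. These refits use the libraries that chose Id2, so calls and range are a description and lend the difference no support. The cause of these changes was not tested.

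Signs turned for values that never passed the threshold. With the choroid plexus score, Id1 was 0.073 between Old Veh and Young Veh, and between Old PF4 and Young PF4 Id1 was 0.081, Id3 0.062, Tcf12 0.027 and Smad6 0.180. With the length index, Hes5 was 0.012, -0.014 and 0.014 between Old Veh and Young Veh, Old PF4 and Young PF4, and Young PF4 and Young Veh, and Id2 0.006 in the last. Between Old PF4 and Old Veh, where values are a description, Hes5 was -0.013 with the length index, Tcf12 0.001 without the low-depth libraries and 0.008 with the interneuron score, and with libraries dropped singly Id1 ranged from -0.008 to 0.120 and Hes5 from -0.040 to 0.169. Without the low-depth libraries, Tcf3 was -0.009 and Smad6 0.021 between Old PF4 and Young PF4, and Id2 0.013, Tcf3 0.021 and Tcf4 0.017 between Young PF4 and Young Veh. With the progenitor score, Tcf12 was 0.010 and Smad6 0.021 between Old PF4 and Young PF4 and Hes1 -0.004 between Young PF4 and Young Veh, where the interneuron score gave -0.003. With a library left out, the ranges that cross 0 were, between Old PF4 and Young PF4, -0.249 to 0.058 for Smad6, -0.111 to 0.097 for Hes5 and -0.040 to 0.117 for Hes1, and between Young PF4 and Young Veh, -0.027 to 0.062 for Hes1, -0.062 to 0.021 for Hes5, -0.028 to 0.133 for Id1, -0.024 to 0.018 for Id2, -0.070 to 0.032 for Id3, -0.001 to 0.036 for Id4 and -0.020 to 0.011 for Tcf4.

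Over all genes, calls between Old Veh and Young Veh went from 492 to 176 without the low-depth libraries, 901 with the length index and 286 with the progenitor score. Between Old PF4 and Young PF4 they went from 59 to 90 with DESeq2, 21 with the compared groups alone and 98 with the length index, and between Old PF4 and Old Veh from 6 to 24 with DESeq2, 10 with the choroid plexus score and 0 with the compared groups alone, the length index, the interneuron score or without the low-depth libraries. Replicate numbers were not used to pair the mice in the main fit. Between Old Veh and Young Veh, 5 of 12 same-numbered pairs correlated above 0.1 (median r 0.037), and between Old PF4 and Old Veh 6 of 10 (median 0.186). Between Young PF4 and Young Veh it was 5 of 12 (highest 0.846), and between Old PF4 and Young PF4 3 of 10. Pairs of different number were not compared, so these counts cannot show whether the numbers pair mice. In both old groups the lowest replicate numbers belong to the oldest mice. With the replicate block 2 members and 2 pathway genes were called between Old Veh and Young Veh, Id4 was -0.174, and over all genes 90 were called between Old PF4 and Young PF4 and 10 between Old PF4 and Old Veh. Smad6 had the fewest reads of the 10 genes, down to 5 in a library; how far depth, rather than the spread between mice, sets its interval was not tested.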
